A study of Mus musculus with 15 samples.

Results

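Sst, Hhex, Rbp4, Ppy, Pyy and Ghrl were chosen by name as the hormones and markers of the delta, PP and epsilon cells, the minor endocrine cell types of the islet, and are 6 of the 48709 genes in the deposited table. They were followed in whole islets of 15 NOD females, a mouse strain in which leukocytes enter the islets before autoimmune diabetes develops, with 3 mice at each of 5 ages (4, 6, 8, 10 or 12 weeks). All mice carried the NOD background with no added allele or treatment, and no control strain stands beside them, so age and the course of islet infiltration cannot be told apart. The islets were isolated by collagenase digestion and each sample is RNA of the whole preparation, whatever cells it held. In such bulk RNA fewer cells of a type and less RNA per cell cannot be told apart.

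Delta cells release somatostatin, which restrains the secretion of insulin and glucagon by neighbouring cells. PP cells release pancreatic polypeptide, and epsilon cells, which are abundant in the fetal islet and rare afterwards, release ghrelin. Peptide YY belongs to the same peptide family as pancreatic polypeptide and neuropeptide Y and is made in the islet as well as in the gut.

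Sst (ENSMUSG00000004366) encodes somatostatin and lies on chromosome 16 from 23889581 to 23890844 in GRCm38, minus strand. Hhex (ENSMUSG00000024986, chromosome 19, 37434810 to 37440731, plus strand) encodes a homeodomain factor that delta cells need, and is also active in endothelial and B-lineage cells. Rbp4 (ENSMUSG00000024990, chromosome 19, 38116620 to 38125321, minus strand) encodes the carrier of retinol in blood, and within the mouse islet is a marker of delta cells. Ppy (ENSMUSG00000017316, chromosome 11, 102099930 to 102101319, minus strand) encodes pancreatic polypeptide. Pyy (ENSMUSG00000017311, chromosome 11, 102106676 to 102107832, minus strand) encodes peptide YY. Ghrl (ENSMUSG00000064177, chromosome 6, 113716119 to 113719880, minus strand) encodes ghrelin, and the 2 annotated transcripts that overlap it on the other strand had 0 counts in all mice.

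Ppy and Pyy are direct neighbours, 5356 bases apart with 0 genes between them. The annotated transcripts of both genes share 0 words of 20 bases on either strand, so a read of either gene has no stretch of that length in the other. The sequences before the start of both neighbours and the 30 bases around the cAMP response element of Sst are shown because the PP-fold pair and Sst behaved differently with age. They are written 5′ to 3′ on the minus strand, from RefSeq on GRCm38.p6, with matches to the cAMP response element (TGACGTCA) and the TATA box (TATAAA) in capitals.
Sst, chr16:23890874-23890903: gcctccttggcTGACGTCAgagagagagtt
Ppy, chr11:102101320-102101469: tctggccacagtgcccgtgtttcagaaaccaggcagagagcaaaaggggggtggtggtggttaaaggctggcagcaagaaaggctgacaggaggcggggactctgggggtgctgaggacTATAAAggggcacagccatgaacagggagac
Pyy, chr11:102107833-102107982: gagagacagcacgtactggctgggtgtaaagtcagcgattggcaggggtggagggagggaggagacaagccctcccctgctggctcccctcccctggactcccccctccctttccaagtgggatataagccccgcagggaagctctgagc

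The element of Sst begins 48 bases before its RefSeq start, and the same letters occur in 1.36% of 32851 promoter windows of 150 bases, searched on both strands. GENCODE M21 extends the first exon of Sst to position 23890958, so in that annotation the element lies within the exon. The TATA box of Ppy begins 31 bases before its start and these letters occur in 7.57% of the windows. Neither sequence was matched in the 150 bases before Pyy, and the letters TAAT, the core of many homeodomain sites, were found once in the window of Sst and in neither neighbour (37.8% of all windows). These matches are a description of the exact letters only, and their part in the changes with age was not tested.

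The counts summed to 25407492 to 41616275 per sample, and 16554 genes had enough reads to be tested, all 6 members among them. The 2 mice with intestinal transcripts stand apart from the rest: Alpi, an enzyme of the intestinal brush border, had 3623 counts in 12-week replicate 1 and 461 in 6-week replicate 2, against 0 in the other 13. The 14 intestinal epithelial genes summed to 530 CPM (counts relative to the TMM-scaled library total) and 162 CPM in these mice and to 46.2 to 105 CPM elsewhere. The gut also makes somatostatin, peptide YY and ghrelin, so the results below are given without both mice as well where a call changed. Other values moved without a change of call, and some of these are given with the gut hormone counts below.

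Levels per transcript length were ordered Sst, Ppy, Pyy, Rbp4, Hhex and Ghrl. In the deposited TPM values, which are corrected for transcript length, the median over 15 mice was 22522 for Sst, 12217 for Ppy, 4216 for Pyy, 427 for Rbp4, 33.4 for Hhex and 0.584 for Ghrl. At each of the 5 ages the 3 mice of each gene lay entirely above those of the next gene in this order. Sst exceeded Ppy by 1.19 to 5.2 times in TPM over the 15 mice, and Ppy exceeded Pyy by 1.91 to 3.59 times.

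Ppy fell 3.44-fold and Pyy 3.4-fold from 4 to 12 weeks. On the TMM scale Sst and Rbp4 were lower by a smaller margin in the late mice and Hhex was slightly higher there. Ghrl was barely detected. In the joint test over the 5 ages (edgeR quasi-likelihood, Benjamini-Hochberg adjusted over all genes tested), Ppy, Pyy and Rbp4 were called at an adjusted p under 0.05, 3 of 6 where 56.0% of all genes were called. At 12 against 4 weeks the same count of 3 members was called, all lower (53.5% of all genes), and between the late mice (10 and 12 weeks) and the early mice (4 and 6 weeks) 5 members were called, 4 lower and 1 higher (63.8% of all genes). These shares of members lie near those of all genes, so the counts alone do not set the members apart. For 4 of 6 members the 12-week mice did not overlap the 4-week mice (64.2% of all genes tested), and for 3 of 6 the late mice did not overlap the early ones (36.7%). Without both mice with intestinal transcripts the counts of members called were 3, 4 and 4, with Sst gained at 12 against 4 weeks and Hhex lost in the late against early comparison. Among all genes, 7532, 7943 and 9804 were called in the same fits.

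**Figure D1:**
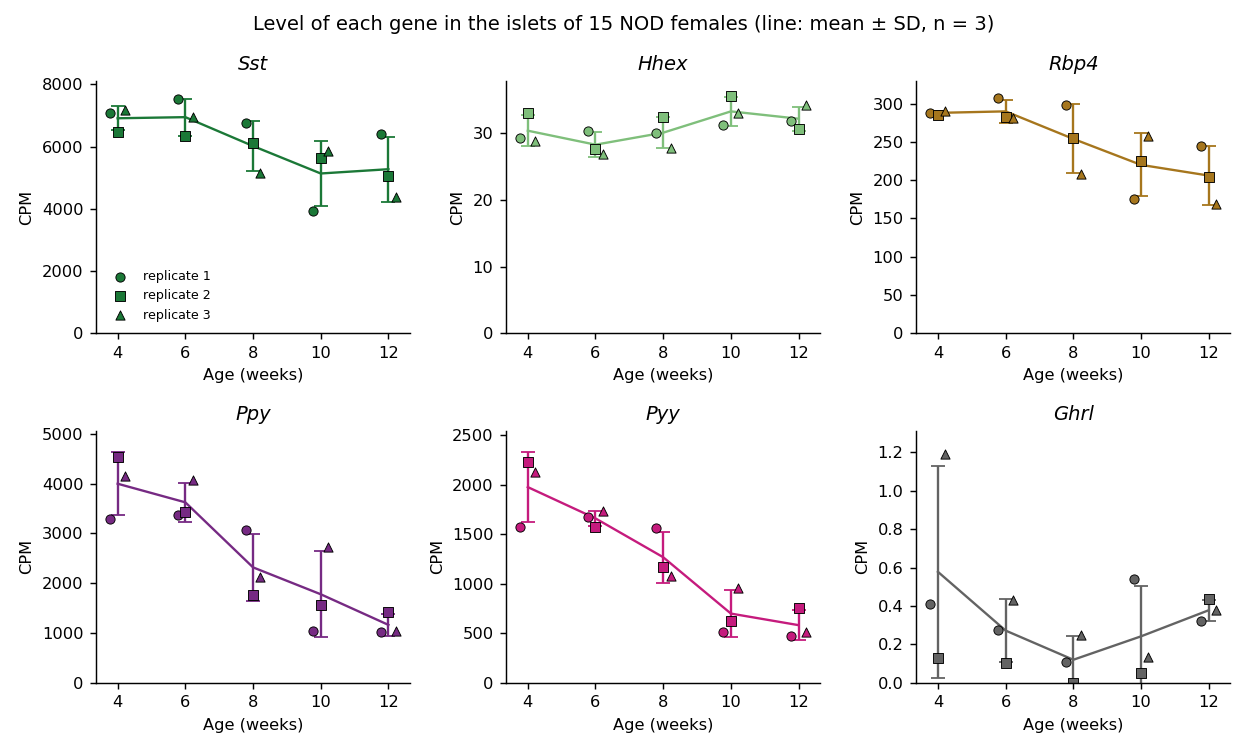
Level of each gene in CPM (vertical axis, starting at 0) against age in weeks, with a symbol for each of the 15 mice and a line for the mean ± SD of 3 mice. Ppy and Pyy decline over the whole age range, Sst and Rbp4 decline less and spread more from 8 weeks on, Hhex stays between 26.9 and 35.6 CPM, and Ghrl stays at or below 1.19 CPM.

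Ppy was highest at 4 and 6 weeks. Its values were 3295, 4538 and 4162 CPM at 4 weeks, 3360, 3438 and 4075 at 6, 3066, 1760 and 2127 at 8, 1044, 1561 and 2729 at 10, and 1029, 1425 and 1035 at 12 weeks. All 3 mice of 12 weeks lay below every mouse of 4 and 6 weeks, while at 10 weeks replicate 3 still carried a level like that of the 8-week mice. The log2 fold change from 4 to 12 weeks was -1.78 (SE 0.307, adjusted p 0.00066), 3.44-fold lower. Late against early mice differed by -1.4 (SE 0.215, adjusted p 0.00013), with all 6 late mice below all 6 early ones.

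Pyy followed the same course at a lower level. The CPM values were 1572, 2227 and 2128 at 4 weeks, 1672, 1576 and 1733 at 6, 1559, 1166 and 1079 at 8, 511, 627 and 960 at 10, and 474, 756 and 515 at 12 weeks. No mouse of 10 or 12 weeks reached the lowest mouse of the younger ages. The log2 fold change was -1.76 from 4 to 12 weeks (SE 0.245, adjusted p 0.00028), 3.4-fold lower, and -1.51 in late against early mice (SE 0.172, adjusted p 2.75e-05).

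Somatostatin mRNA declined by a small margin on the TMM scale. Sst was at 7083, 6465 and 7177 CPM at 4 weeks, 7530, 6342 and 6963 at 6, 6771, 6121 and 5157 at 8, 3912, 5629 and 5857 at 10, and 6408, 5045 and 4361 at 12 weeks. The 12-week mice all lay below the 4-week mice, replicate 1, a mouse with intestinal transcripts, just under the lowest of them. From 4 to 12 weeks the log2 fold change was -0.39 (SE 0.172, adjusted p 0.0726), which did not pass the threshold. It was -0.56 without 12-week replicate 1 (adjusted p 0.0229) and likewise -0.56 without both mice with intestinal transcripts (adjusted p 0.0303), and the call was also gained without 10-week replicate 1 (-0.39, adjusted p 0.0343). Late against early, with 12 mice, Sst fell by 0.41 on the log2 scale (SE 0.122, adjusted p 0.00977), and 5 of 6 late mice lay below every early mouse. Scaled by library totals alone it was at -0.19 and not called (adjusted p 0.162). At 12 against 4 weeks library totals gave -0.15 (adjusted p 0.447). In the deposited TPM the mean of Sst was 22205 at 4 weeks and 21991 at 12 weeks. Early mice (20050 to 24325 TPM) and late mice (16546 to 25727 TPM) overlapped there.

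Rbp4 ran beside Sst. It was at 288, 285 and 291 CPM at 4 weeks, 307, 283 and 281 at 6, 298, 255 and 208 at 8, 176, 225 and 258 at 10, and 245, 204 and 169 at 12 weeks. The young mice differed little from each other and the older ones differed widely, yet all 6 late mice lay below all 6 early ones. The log2 fold change was -0.48 at 12 against 4 weeks (SE 0.158, adjusted p 0.0214) and -0.44 in late against early mice (SE 0.112, adjusted p 0.00389). The 12 against 4 week call was lost without 4-week replicate 3 (adjusted p 0.0531), 12-week replicate 2 (0.0511) or 12-week replicate 3 (0.0948). The joint call of Rbp4, with an adjusted p of 0.0469, was lost under 14 of 21 alternatives. With library totals the late against early difference was -0.22 and not called (adjusted p 0.0701), and that at 12 against 4 weeks was -0.24 (adjusted p 0.16).

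Hhex lay within a narrow range in CPM. It was at 29.3, 33.1 and 28.9 CPM at 4 weeks, 30.4, 27.7 and 26.9 at 6, 30, 32.5 and 27.8 at 8, 31.2, 35.6 and 33 at 10, and 31.9, 30.6 and 34.2 at 12 weeks. On this scale mice of neighbouring ages overlapped throughout, and all 6 late mice lay above all 3 mice of 6 weeks. From 4 to 12 weeks the log2 fold change was 0.08 (SE 0.0837, adjusted p 0.423), and late mice were higher than early mice by 0.16 (SE 0.0592, adjusted p 0.0324). This call was lost when any of 6 single mice was left out (4-week replicates 1 and 3, 6-week replicates 2 and 3, 10-week replicate 2 or 12-week replicate 3), with an adjusted p of up to 0.0847, and with no filter on low counts (0.0511). Scaled by library totals alone the difference was 0.39 (adjusted p 0.000175), and the joint call, which missed here (adjusted p 0.156), was then gained (0.00288), as it was in DESeq2 (0.034). In the deposited TPM Hhex was at 27.4 to 32.1 in early mice and at 39 to 48.1 in late mice, without overlap. The size of its rise thus depended on the scaling. The 6 B-cell markers, of which all were called higher, rose from a summed 4.56 to 19.1 CPM in early mice to 148 to 401 CPM in late mice, and 4 of 8 endothelial markers were called higher and 1 lower, with sums of 603 to 694 CPM in early mice and 673 to 855 CPM in late mice. Their part in the level of Hhex was not tested.

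Ghrl was near the limit of detection. Its counts were 11, 3 and 33 at 4 weeks, 7, 4 and 11 at 6, 3, 0 and 7 at 8, 15, 2 and 4 at 10, and 10, 13 and 12 at 12 weeks, where 3 counts are taken as the limit that a count of 0 allows. The 135 counts of all mice together leave a difference between ages undetectable at this depth, with a log2 fold change of -0.62 from 4 to 12 weeks (SE 0.871, adjusted p 0.566). Without 4-week replicate 3 the sign turned (0.46, adjusted p 0.733).

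**Figure D2:**
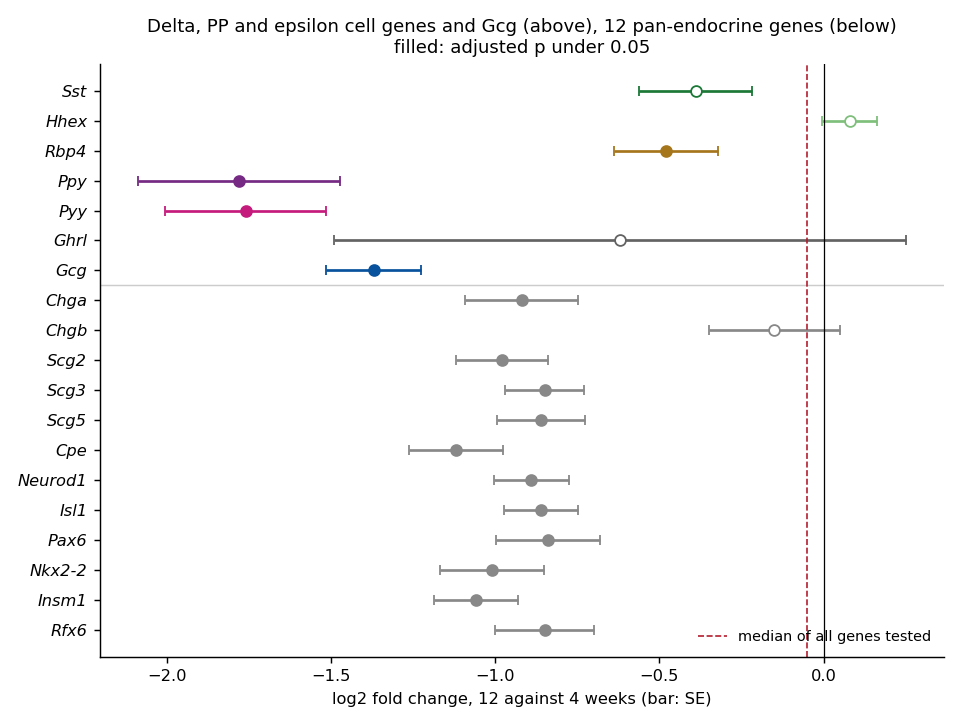
Log2 fold change at 12 against 4 weeks (horizontal axis, bars are SE) for the 6 genes and Gcg above the grey line and for 12 pan-endocrine genes below it, filled where the adjusted p was under 0.05. Ppy at -1.78 and Pyy at -1.76 lie left of all 12 pan-endocrine genes, whereas Hhex at 0.08 lies right of all 12, and Sst at -0.39 and Rbp4 at -0.48 lie right of all but Chgb.

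The steps between neighbouring ages were small against the spread of 3 mice. No member was called at 6 against 4 weeks, where 0.0906% of all genes were called, at 8 against 6 weeks (0.0% of all genes) or at 12 against 10 weeks (0.0%). In edgeR 0 members had an unadjusted p under 0.05 in these 3 steps, and DESeq2 and the edgeR exact test called 0 members there as well. At 8 against 6 weeks the 3 older mice lay below the 3 younger ones for both Ppy (-0.64, SE 0.299, adjusted p 0.279) and Pyy (-0.39, SE 0.238, adjusted p 0.4), 2 of 6 members without overlap where 19.3% of all genes had none.

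At 10 against 8 weeks Pyy fell by 0.86 on the log2 scale (SE 0.24, adjusted p 0.0353), the 1 member called in a step where 16.8% of all genes were called. Ppy changed by -0.38 in that step (SE 0.298, adjusted p 0.357), and by -0.83 without 10-week replicate 3 (adjusted p 0.0274), whose Ppy of 2729 CPM lay far above those of the other 10-week mice. The call of Pyy was lost without either of 8-week replicates 1 (adjusted p 0.15) and 2 (0.0741) and without either of 10-week replicates 1 (0.139) and 2 (0.134), as well as without both mice with intestinal transcripts (0.0549). It was also lost with only these ages in the fit (adjusted p 0.171), where 0 genes were called in all, and in the edgeR exact test (0.0917).

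Endocrine genes in general made up less of the RNA in older mice, so the members were also set against 12 genes widely used by islet endocrine cells: 6 of the secretory granule (Chga, Chgb, Scg2, Scg3, Scg5 and Cpe) and 6 transcription factors (Neurod1, Isl1, Pax6, Nkx2-2, Insm1 and Rfx6). The part of each cell type in the level of these 12 genes in whole islets was not tested. Of these 12, 11 were called lower at 12 against 4 weeks, with a median log2 fold change of -0.88 against -0.05 over all genes tested. Their mean log2 CPM was 9.56 ± 0.068 in the 6 early mice and 8.79 ± 0.203 in the 6 late mice (SD). The difference of each member from this mean was compared between late and early mice by an exact permutation test, two-sided, whose smallest possible p is 0.00216, with adjustment over the 6 members.

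Relative to the endocrine genes, Sst, Rbp4 and Hhex rose while Ppy and Pyy fell. Sst stood 3.23, 3.07 and 3.17 above the endocrine mean on the log2 scale at 4 weeks and 3.87, 3.47 and 3.54 above it at 12 weeks. Late exceeded early mice by 0.34 for Sst (exact permutation p 0.00433, adjusted 0.00649). For Rbp4 the difference was 0.31, with no overlap between the groups (exact permutation p 0.00216, adjusted 0.00433).

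Hhex was higher by 0.93 relative to the endocrine genes in late against early mice (exact permutation p 0.00216, adjusted 0.00433). Its relative values ran from -4.81 to -4.53 in early mice and from -4.08 to -3.46 in late mice. At 8 weeks the 3 mice lay at -4.58, -4.25 and -4.37, between both groups apart from replicate 1.

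Ppy moved the other way. Its values relative to the endocrine genes were 2.13, 2.56 and 2.38 at 4 weeks and 1.23, 1.65 and 1.46 at 12 weeks, and the change from early to late mice was -0.69 (exact permutation p 0.00866, adjusted 0.0104). Pyy stood at 1.06, 1.53 and 1.41 at 4 weeks and at 0.11, 0.73 and 0.45 at 12 weeks, with a difference of -0.77 between late and early mice and no overlap (exact permutation p 0.00216, adjusted 0.00433). The 10-week replicate 3, at 2.29 for Ppy, lay within the early range of 2.13 to 2.56. For Ghrl the difference was 0.52 with wide overlap (exact permutation p 0.392).

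**Figure D3:**
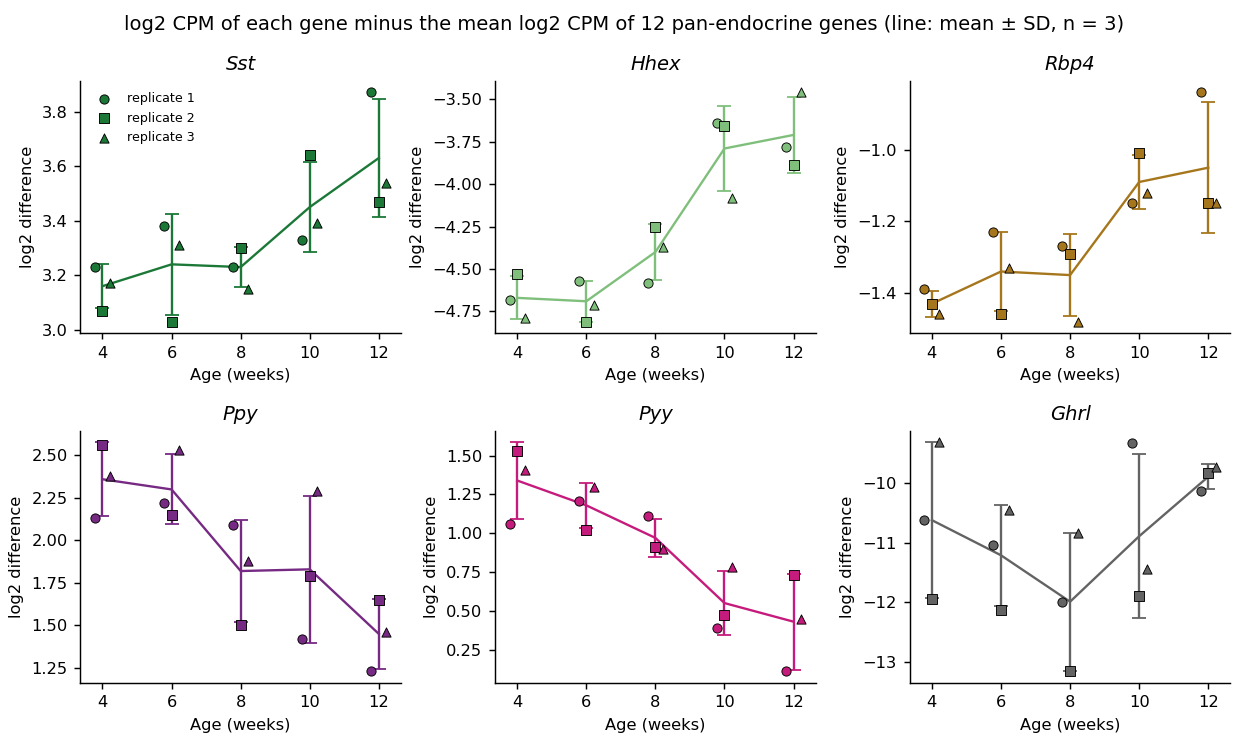
Log2 CPM of each gene minus the mean log2 CPM of the 12 pan-endocrine genes (vertical axis, log2 units) against age in weeks, with a symbol per mouse and a line for the mean ± SD of 3 mice. The late mice lie above the early ones for Hhex and Rbp4 and below them for Pyy without overlap, and with overlap above for Sst and below for Ppy.

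The difference between hormones of the same mouse carries no scaling between libraries. Both PP-fold hormones fell against somatostatin: the log2 difference Ppy minus Sst was -0.87 ± 0.24 in early and -1.9 ± 0.494 in late mice, a change of -1.03 (exact permutation p 0.00649, adjusted over 7 pairs 0.0114). Pyy minus Sst changed by -1.11 (exact permutation p 0.00216, adjusted 0.0101), with no overlap between 6 late and 6 early mice. Ppy minus Pyy was 1.07 ± 0.0961 in early and 1.15 ± 0.222 in late mice, and the change of 0.08 did not pass (exact permutation p 0.47).

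Glucagon, the alpha-cell hormone, fell too: Gcg went from 46342, 51710 and 48764 CPM at 4 weeks to 16574, 23041 and 17048 CPM at 12 weeks, which is -1.37 on the log2 scale (SE 0.145, adjusted p 0.000133). Sst rose against Gcg by 0.67 (exact permutation p 0.00433, adjusted 0.0101). Pyy fell against Gcg by 0.44 on the log2 scale (exact permutation p 0.013, adjusted 0.0182), while Ppy minus Gcg changed by -0.36 without passing (exact permutation p 0.108, adjusted 0.126). Without 10-week replicate 3 that change was -0.52 with an adjusted p of 0.00758. Against Hhex, which is also active in endothelial and B-lineage cells, Sst fell by 0.59 (exact permutation p 0.00433, adjusted 0.0101).

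As shares of the summed TPM of 7 islet hormone genes (Ins1, Ins2, Gcg, Sst, Ppy, Pyy and Ghrl), Sst went from 4.59% ± 0.47 at 4 weeks to 4.59% ± 0.494 at 6, 5.04% ± 0.533 at 8, 6.04% ± 0.248 at 10 and 6.63% ± 1.03 at 12 weeks (SD, n = 3). Ppy went from 3.16% ± 0.327 at 4 weeks to 1.75% ± 0.233 at 12 weeks, and Pyy from 1.23% ± 0.155 to 0.693% ± 0.138. Sst had a larger share in each 12-week mouse (5.78% to 7.78%) than in any 4-week mouse (4.08% to 5.02%). Together the 7 genes held 48.5% ± 1.04 of all TPM at 4 weeks and 33.2% ± 2.32 at 12 weeks. The shares were computed after the values were seen and carry no test.

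**Figure D4:**
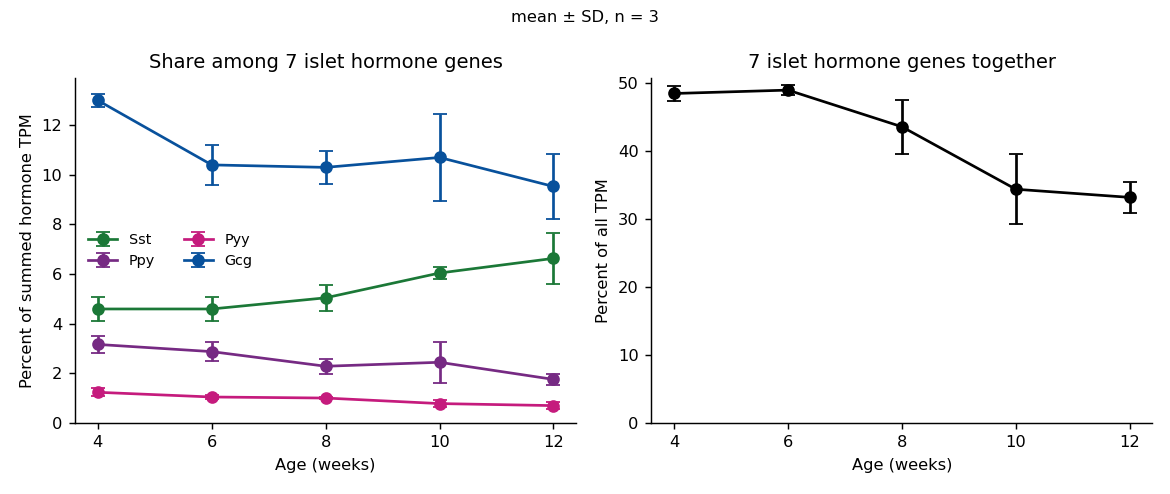
Left, percent of the summed TPM of 7 islet hormone genes held by Sst, Ppy, Pyy and Gcg against age in weeks. Right, percent of all TPM held by the 7 genes together (points are the mean of 3 mice, bars the SD). Sst goes from 4.59% to 6.63% while Ppy goes from 3.16% to 1.75% and all 7 together from 48.5% to 33.2%.

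From mouse to mouse Sst varied closely with Rbp4 and Ppy with Pyy, and Hhex did not vary closely with Sst or Rbp4. Over the 15 mice the Pearson correlation of log2 CPM was 0.963 between Sst and Rbp4 and 0.966 between Ppy and Pyy, against 0.766 between Sst and Ppy. After each age mean was subtracted the values were 0.946, 0.924 and 0.477. Hhex and Sst were at -0.356 over all mice and 0.221 within ages, and Hhex and Rbp4 at -0.371 and 0.213. The mice share age, library and scaling, and these values are a description.

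**Figure D5:**
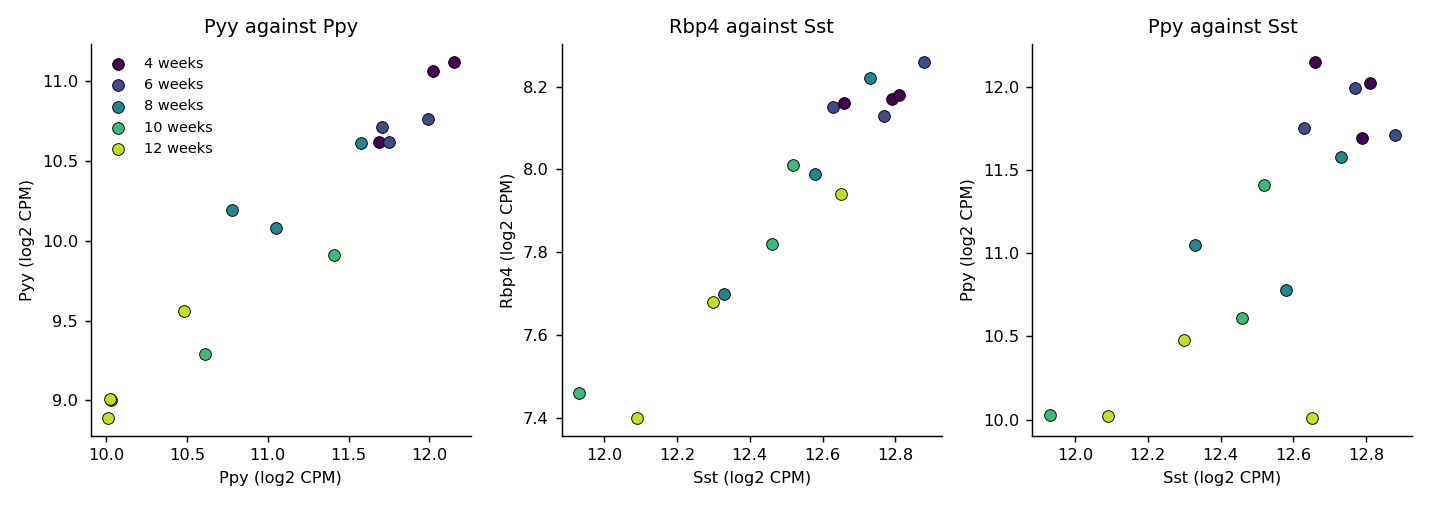
Log2 CPM of Pyy against Ppy, Rbp4 against Sst and Ppy against Sst, with a point for each of the 15 mice coloured by age. Pyy and Ppy, as well as Rbp4 and Sst, lie along a line from the old to the young mice, whereas 12-week replicate 1 lies apart in the last panel with high Sst (6408 CPM) and low Ppy (1029 CPM).

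Among all genes tested, the 5 most like Sst over the 15 mice were Rbp4, Wipi1, Hopx, Hagh and Pcsk2os1, with Pearson correlations of 0.932 to 0.963. Those most like Rbp4 were Ift20, Sst, Dph3, Snap47 and Tceal3 (0.955 to 0.967), so that Sst and Rbp4 were each among the closest to the other out of 16554 genes. Ppy was most like Fbxl18, Vwa5b2, Cpb2, 9330182L06Rik and Mageh1 (0.977 to 0.98), and among the genes most like Pyy were Adgrl1, Slc16a10, a copy listed as Pik3c2g_1 and Nlgn2 (0.986 to 0.991). The closest to Hhex were Glt8d2, Gm14005, Olfr99, Gm2026 and Abcf2, at 0.78 to 0.831. For Ghrl, at its few counts, the closest were Acat2, Cwc22, Wdr4, Spry2 and Dffb (0.703 to 0.744).

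Among other genes known from delta cells more were called lower than higher. Of 8, all were tested, and at 12 against 4 weeks 4 were called lower and 1 higher, the median change being -0.36 (log2). In late against early mice 6 were called lower and 1 higher. Of the 16554 genes tested, 53.5% were called at 12 against 4 weeks, 4357 higher and 4501 lower, the background for this list and those that follow. Fxyd6, a regulator of the sodium pump, fell, with a log2 fold change of -1.5 (SE 0.235, adjusted p 0.000432), as did Ghsr, the ghrelin receptor, at -0.95 (SE 0.192, adjusted p 0.0016). Lepr, the leptin receptor, was the 1 called higher, by 1.86 (SE 0.263, adjusted p 0.0003), and which cells it came from was not tested. Mboat4, the enzyme that acylates ghrelin, did not reach the filter with 1 to 24 counts.

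Of 5 receptors that somatostatin acts on, 3 were tested and all 3 were called lower at 12 against 4 weeks, where 53.5% of all genes were called. Their median was -0.67, against -0.88 for the 12 pan-endocrine genes. Sstr2 was at -1.08 (SE 0.177, adjusted p 0.000518), Sstr1, with 14 to 46 counts, at -0.67 (SE 0.25, adjusted p 0.0389) and Sstr3 at -0.43 (SE 0.146, adjusted p 0.0235). Sstr4 and Sstr5 had at most 6 and 5 counts in any mouse.

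Of 8 gene symbols listed for the PP-fold peptides, their receptors and the protease that trims them, 7 were in the table and 3 were tested. Npy1r, a receptor for neuropeptide Y and peptide YY, was called higher at 1.31 (SE 0.412, adjusted p 0.0172). Npy, which encodes the third peptide of the family, changed by -0.58 (SE 0.255, adjusted p 0.0724), and was called lower in late against early mice (-0.56, SE 0.18, adjusted p 0.0156). Npy2r, Npy5r and Npy6r had at most 3 counts in every mouse, and Npy4r, the receptor preferred by pancreatic polypeptide, had at most 9.

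Of 10 genes of retinol transport and binding, the setting of Rbp4, 7 were tested, with 4 called higher and 3 lower at 12 against 4 weeks and a median of 1.83. Ttr, with the most counts of the list (10004 to 42683), was called lower at -1.72 (SE 0.219, adjusted p 0.000223). The summed CPM of the list ran from 1251 to 1562 at 4 weeks and from 351 to 608 at 12 weeks. Stra6, the membrane receptor for Rbp4, was at 0 to 30 counts and called higher (adjusted p 0.000192), as was Lrat, which esterifies retinol, at 1 to 93 counts (adjusted p 0.000216). Crabp1 had at most 3 counts, and Rbp2, an intestinal retinol carrier, had 1685 counts in 12-week replicate 1 and 239 in 6-week replicate 2 against at most 5 elsewhere.

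Of 10 lineage transcription factors, 9 were tested and 8 were called lower at 12 against 4 weeks, with a median of -1.21. Pou3f4 was at -1.51 (SE 0.212, adjusted p 0.000295) and Irx2 at -1.46 (SE 0.146, adjusted p 0.000128). Pax4 had at most 1 count. All 7 alpha-cell genes (median -1.15) and all 9 beta-cell genes (median -0.82) were called lower.

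Other cell types were present in amounts that changed with age beside these results. All 23 leukocyte markers in the table (T cells, B cells, myeloid cells and all leukocytes) were called higher (median change 4.64, log2), and their sum ran from 60.1 to 346 CPM in early mice, 213 to 1282 at 8 weeks and 1361 to 3152 CPM in late mice. All 5 lymph node stroma and all 6 mesenchymal markers were called higher as well. Of the 10 acinar markers 0 were called, with sums of 1368 to 16056 CPM that varied among mice of each age. Their part in the results of the 6 genes was not tested.

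For 6 duct markers 2 were called higher and 2 lower, and for 6 hepatocyte genes 1 was called higher and 3 lower. Gastric epithelium, a source of ghrelin, was nearly absent: of 8 markers 5 had at most 3 counts in every mouse (Gif, Tff1, Atp4b, Gkn1 and Gkn2), the last 3 of them with 0 counts in all 15 mice, and the 1 marker tested, Atp4a, was called lower. Of 6 adipocyte markers, 1 was tested and 0 were called, with sums of at most 3.61 CPM. Of 14 intestinal epithelial genes 4 were tested and 1 was called lower, and of 7 other gut hormone genes in the table (Cck, Sct and Gip among them) 1 was tested and 0 were called.

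Both mice with intestinal transcripts also carried gut hormone counts. Gip had 115 counts in 12-week replicate 1 and 22 in 6-week replicate 2 against at most 1 elsewhere, and Cck had 77 in the former against at most 11 in any other mouse. The same 12-week mouse held the highest Sst and Rbp4 and the lowest Pyy and Ppy of its age, and 10 Ghrl counts against 13 and 12. The changes relative to the endocrine genes were 0.24 for Sst, 0.91 for Hhex, 0.25 for Rbp4, -0.64 for Ppy and -0.74 for Pyy without both mice, with exact permutation p values adjusted to 0.0159 to 0.0286. Also without them, Ppy minus Sst changed by -0.88, Pyy minus Sst by -0.98 and Pyy minus Gcg by -0.43. Sst minus Gcg changed by 0.55 and Sst minus Hhex by -0.67, all of these pairs with exact permutation p values adjusted to 0.0278 to 0.0444. Ppy minus Pyy (0.09) and Ppy minus Gcg (-0.33) again did not pass. In edgeR at 12 against 4 weeks, Rbp4 was at -0.63 (adjusted p 0.0138), Ppy at -1.7 (0.00565) and Pyy at -1.64 (0.00231).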

How the data were processed

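Islet RNA of 15 NOD females (3 per age) was sequenced from polyA-enriched libraries. The authors trimmed, aligned and counted reads in CLC Genomics Workbench, and the deposited counts are whole reads per gene with no normalization. The deposited TPM values were scaled by the authors for transcript length and depth. The labels name mm10, and 30 other per-sample columns were not used. The 6 members and all gene lists were chosen with earlier results of these data known.

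Genes were filtered with filterByExpr (16554 of 48709), scaled by TMM and fitted with edgeR 4.0.16 in R 4.3.3 (quasi-likelihood, 1 mean per age). A gene was called at a Benjamini-Hochberg adjusted p under 0.05 over all genes tested. CPM used TMM library sizes, and log2 CPM a prior count of 2. Exact permutation tests (scipy 1.17.1) took all 924 splits of 6 late against 6 early mice. The pipeline was tested on simulated data. Fits with other scalings, no filter, DESeq2 1.42.0, a replicate block and each mouse left out were run as alternatives, and leaving out both mice with intestinal transcripts was added after seeing the data. Figures used matplotlib 3.10.9.

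All 6 members with Gcg are named. From each list the text names at most the 3 called genes with the largest change at 12 against 4 weeks and those at 3 counts or fewer in every mouse. Exceptions named after their values were seen are the genes that mark intestinal transcripts, receptors and enzymes of the members' products, Npy and Ttr. For each member the 5 genes of highest Pearson correlation are named. A few genes that meet these rules are not reported here. The symbols Ppyr1, Mln and Itgam were absent from the deposited table and were not analysed here. No sequencing batch was given in the sources used here. Nothing says whether the samples differ in more than the animal, so p-values measure the spread between these mice. Replicates of an age differed far beyond sampling noise, their chi-square being 15.9 to 127 times its degrees of freedom.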

Additional observations from a re-analysis of the deposited data

Results flagged for a closer look

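In 12 groups checked (6 genes, early and late mice, 6 mice each), 3 held a mouse set apart by a gap past the 95% critical value of Dixon's test, where chance flags about 1 in 20 groups. Ppy in 10-week replicate 3 was at 2729 CPM, against 1029 to 1561 CPM in the other late mice. Rbp4 in 6-week replicate 1 was at 307 CPM, against 281 to 291 CPM in the other early mice. Ghrl in 4-week replicate 3 was at 1.19 CPM, against 0.105 to 0.433 CPM in the other early mice.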

How the results depend on the processing

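The falls of Ppy and Pyy at 12 against 4 weeks, in the joint test and in late against early mice kept their direction and call under every alternative run, with log2 fold changes at 12 against 4 weeks of -1.95 to -1.54 for Ppy and -2 to -1.52 for Pyy. Scaled by library totals alone, the median log2 change of all genes moved up by 0.244 at 12 against 4 weeks and 78.1% of called genes were higher there (49.2% with TMM). Under them 3 members were called in late against early mice (Sst and Rbp4 were not), and Hhex at 12 against 4 weeks was called at 0.33 (adjusted p 0.00788).

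Counts of all genes called in the steps between ages depended strongly on the fit. At 6 against 4 weeks they were 249 with DESeq2, 265 with the edgeR exact test, 141 with only these ages in the fit, 5 with the replicate block, 0 without both mice with intestinal transcripts and 0 to 69 with single mice left out (0 without 6-week replicate 2, 69 without 8-week replicate 1 and 61 without 10-week replicate 3). At 8 against 6 weeks DESeq2 called 543 and the exact test 157, with 0 to 797 when single mice were left out (797 without 8-week replicate 1). At 12 against 10 weeks DESeq2 called 12 and the exact test 7. At 10 against 8 weeks they were 0 with the replicate block, 0 with only these ages in the fit, 140 with the exact test, 1144 without both mice and 0 to 5612 with single mice left out (0 without 8-week replicates 1 or 2 or 10-week replicates 1 or 2, 1767 without 4-week replicate 2, 5612 without 10-week replicate 3). Members called in that step were 0 with the block, with only these ages, with the exact test and without both mice, and 0 to 2 with single mice left out. The cause was not tested.

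Between 12 and 4 weeks alone, the smallest possible p of 0.1 lets no permutation result pass. The differences were 0.47 for Sst, 0.96 for Hhex, 0.38 for Rbp4, -0.91 for Ppy and -0.9 for Pyy relative to the endocrine genes. For the pairs they were -0.01 for Ppy minus Pyy, where the sign turned, -1.38 for Ppy minus Sst, -1.37 for Pyy minus Sst, -0.39 for Pyy minus Gcg, 0.98 for Sst minus Gcg and -0.49 for Sst minus Hhex. With single mice left out, Ppy minus Gcg ran from -0.52 to -0.26, Ghrl from -1.08 to 0.46 at 12 against 4 weeks and from -1.08 to 0.14 in late against early mice, and Pyy at 12 against 10 weeks from -0.5 to 0.03. A prior count of 0.5, the 6 secretory genes or the 6 transcription factors alone as reference, the median of the reference list and permuting within the replicate block changed no call of the relative or pair tests.

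The replicate numbers do not pair the mice. Over 30 pairs of same-numbered mice of different ages, the deviations from the mean of each age correlated at -0.643 to 0.509 (median -0.0887). Of 15 mice, 2 were closest to a mouse of their own number. With the replicate block Pyy at 10 against 8 weeks lost its call (-0.89, adjusted p 0.0592), and the block also took the joint call from Rbp4 (adjusted p 0.0749).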
